A study of Mus musculus with 24 samples.

Results

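The NF-kB transcription factors are assembled from 5 subunits, and the results here describe the transcripts of all of them: Nfkb1, Nfkb2, Rela, Relb and Rel. The members were the rows of the deposited table whose gene symbol was one of these 5 names, which gave 5 of the 24273 genes measured. Each symbol matched 1 row, all 5 genes passed the filter on low values, and each had a value in all 24 libraries. On the GRCm38 build, Nfkb1 (ENSMUSG00000028163) lies on the minus strand of chromosome 3, at 135584655 to 135691547. Nfkb2 (ENSMUSG00000025225) and Rela (ENSMUSG00000024927) lie on the plus strand of chromosome 19, at 46304320 to 46312385 and at 5637483 to 5648130. Relb (ENSMUSG00000002983) lies on the minus strand of chromosome 7, at 19606217 to 19629438, and Rel (ENSMUSG00000020275) on the minus strand of chromosome 11, at 23736847 to 23770970. All are protein-coding genes, and the values are for whole genes, so exons, introns and isoforms are not separated.

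Bone marrow-derived macrophages (BMDMs) are obtained by culturing marrow cells until they become macrophages, here from mice of the C57BL/6 strain. Both genotypes carried LysM-Cre, a Cre recombinase driven from the lysozyme M locus (Lyz2) in myeloid cells. The control group is called LysM-Cre, and the other, labelled FosKO, also carried 2 floxed alleles of Fos, the gene of an AP-1 subunit. The series' design gives the controls LysM-Cre alone, whereas the study's text adds 1 floxed Fos allele, and which applied cannot be told from these values. Cells were left unstimulated (0 h) or received lipopolysaccharide (LPS, a bacterial ligand of the receptor TLR4) for 0.5, 1 or 2 h, at a dose of 100 ng/ml. Genotype and time made 8 groups of 3 libraries, and the ages of the mice, and which libraries came from which mouse, are not given in the sources used here.

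NF-kB proteins act as dimers and share a Rel homology domain that binds DNA and joins the partners. RelA (p65), c-Rel (from Rel) and RelB carry transactivation domains. Nfkb1 and Nfkb2 encode the precursors p105 and p100, which are processed to the DNA-binding subunits p50 and p52 and, unprocessed, hold other subunits in the cytoplasm as IkB proteins do. In the canonical branch, TLR4 signals to the IKK kinases, which mark IkB proteins for degradation and so release dimers such as p50 with RelA or c-Rel. In the non-canonical branch, p100 is processed and RelB with p52 enters the nucleus. p105 also binds and stabilises the kinase TPL-2 (Map3k8), and the study asked which LPS-regulated genes FOS controls downstream of that kinase.

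The targeted gene did not check the genotype labels. Fos lay between 11.07 and 11.17 in the LysM-Cre libraries at 0 h, between 13.43 and 13.57 at 0.5 h, between 11.02 and 11.34 at 1 h and between 9.42 and 9.61 at 2 h. In the libraries labelled FosKO it lay between 12.41 and 12.72 at 0 h, between 12.64 and 12.81 at 0.5 h, between 12.67 and 12.86 at 1 h and between 12.67 and 12.93 at 2 h. The Fos transcript was therefore higher, not lower, under the FosKO label at 0, 1 and 2 h, and a value for the whole gene does not show whether a deleted part was missing. Lyz2, the locus that holds Cre, was also higher under that label, by 5.17 on the log2 scale at 0 h (limma, adjusted p = 9.26e-20). This Lyz2 difference goes with the genotype label, and its part in the genotype differences below was not tested. Every direction given below for FosKO rests on the labels. Of 7 macrophage markers, all were measured, at 9.07 to 15.38, whereas the 4 B cell markers stayed between 0.17 and 1.74. Of the 4 T cell markers, Cd3e and Cd3g were below 0 in every library, Cd8a lay between 0.38 and 0.66, and Cd4 lay between 7.57 and 8.44. Cd4, the one of them that passed the filter, was called higher under the FosKO label at each time, by 0.36 to 0.45 (limma adjusted p between 0.00236 and 0.0146), as were Mertk, Fcgr1 and Cd68 of the macrophage list (by 0.89 to 1.65 for Mertk). At 0 h all 7 macrophage markers were called, 3 higher and 4 lower, where 35.4% of tested genes were called in either direction. At 0.5 h 3 were called higher and 1 lower, where 40.9% of tested genes were called in either direction. At 1 h 3 were called higher and 2 lower, beside 33.9%. At 2 h 4 were called higher, where 24.4% of tested genes were. Of the other lists, S100a8, a neutrophil marker, was called lower at 0, 1 and 2 h (by 0.47 to 0.60), and the fibroblast marker Col3a1 was called lower at 2 h (-0.53). Of the 3 tested osteoclast markers, 1 was called lower at 0 h (Ocstamp, -0.28, limma adjusted p = 0.0132), 1 at 0.5 h, and 2 at 1 and 2 h. The 2 were Acp5 (-0.61 at 2 h) and Ocstamp (-1.02 at 2 h), which also differed in response at 2 h. Of 3 tested dendritic cell markers, 1 was called higher at 0.5 h, Ccr7 (0.52, limma adjusted p = 0.00343), and 2 at 1 h, Ccr7 (0.46, limma adjusted p = 0.00988) and Xcr1 (0.42, limma adjusted p = 0.0443), while Zbtb46 was called lower at 2 h (-0.96, limma adjusted p = 1.21e-04). Over all tested genes, 35.4%, 40.9%, 33.9% and 44.6% were called in either direction at 0, 0.5, 1 and 2 h. Those called higher were 19.5%, 21.2%, 18.0% and 24.4%. The part of these markers in the genotype differences below was not tested. Rn18s-rs5, an 18S ribosomal RNA gene, split the libraries into a low set of 5 (16.65 to 17.00) and a high set of 19 (18.57 to 19.39). At 0.5 h the low set held replicate 3 of LysM-Cre with replicate 1 of FosKO. At 1 h it held LysM-Cre replicates 2 and 3 with FosKO replicate 1. The number of reads per library could not be obtained from the values, and errors therefore come from replicate libraries alone.

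RefSeq promoter sequences (GRCm38.p6, 250 bases before to 50 after an annotated start) were matched for 3 of the 5 members. They are shown because kappaB sites, the DNA letters bound by NF-kB itself, are known in promoters of this family, and because the genes rose together. The 4 promoters printed are of Nfkb2 (first start, chr19:46304487-46304786, and second start, chr19:46305445-46305744, both plus strand), Rela (chr19:5637291-5637590, plus strand) and Rel (chr11:23770920-23771219, minus strand), with each match of the wide kappaB letters in capitals.
Nfkb2 promoter 1: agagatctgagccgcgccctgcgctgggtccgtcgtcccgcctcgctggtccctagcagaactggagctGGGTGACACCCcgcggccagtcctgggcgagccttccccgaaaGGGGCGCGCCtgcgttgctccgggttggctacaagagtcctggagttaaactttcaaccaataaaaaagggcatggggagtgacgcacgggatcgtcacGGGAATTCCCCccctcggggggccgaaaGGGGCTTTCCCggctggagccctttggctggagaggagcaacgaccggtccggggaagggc
Nfkb2 promoter 2: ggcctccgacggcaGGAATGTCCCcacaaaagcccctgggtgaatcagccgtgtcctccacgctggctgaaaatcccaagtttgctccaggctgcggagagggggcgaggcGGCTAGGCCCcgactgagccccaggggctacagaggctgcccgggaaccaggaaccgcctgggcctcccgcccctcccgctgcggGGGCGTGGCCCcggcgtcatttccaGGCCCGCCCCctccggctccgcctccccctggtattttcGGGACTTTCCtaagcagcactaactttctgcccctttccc
Rela promoter 1: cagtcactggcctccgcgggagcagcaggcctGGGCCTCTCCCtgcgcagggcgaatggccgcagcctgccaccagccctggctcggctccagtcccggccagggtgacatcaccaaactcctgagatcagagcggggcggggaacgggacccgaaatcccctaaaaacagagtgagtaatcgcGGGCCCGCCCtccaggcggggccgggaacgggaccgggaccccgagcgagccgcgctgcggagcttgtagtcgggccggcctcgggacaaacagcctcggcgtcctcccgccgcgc
Rel promoter 1: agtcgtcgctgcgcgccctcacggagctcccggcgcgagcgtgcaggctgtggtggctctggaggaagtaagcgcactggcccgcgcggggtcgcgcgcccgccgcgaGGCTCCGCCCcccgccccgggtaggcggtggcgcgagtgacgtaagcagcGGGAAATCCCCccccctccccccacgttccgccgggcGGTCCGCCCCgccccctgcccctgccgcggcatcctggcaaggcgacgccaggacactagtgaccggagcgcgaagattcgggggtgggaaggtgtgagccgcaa

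The wide kappaB letters, GGG then 5 bases of any kind then CC, on either strand, were found in every one of the 5 member promoters, including Nfkb2 promoter 3 (not printed, since it overlaps promoter 2), and in 50.8% of all 32851 promoters in the table. The narrow kappaB letters, GGG then any 2 bases then TTTCC, all of which are also wide matches, occur in 1.63% of promoters. They were found in each Nfkb2 promoter, as GGGGCTTTCC at positions -11 to -2 of the first and as GGGACTTTCC at positions 11 to 20 of the second, counted from the start with no position 0. Nfkb2 promoter 3 holds that second match again, at -225 to -216. In the Rel promoter the narrow letters were on the minus strand at -91 to -82, read as GGAAATCCCC on the printed strand. No narrow match lay in the Rela window. The AP-1 letters TGANTCA, found in 7.81% of promoters, occurred once, at -210 to -204 of the second Nfkb2 promoter. The interferon response letters, GAAA then any 2 bases then GAAA, found in 3.44% of promoters, were in none of the 5. A match of letters is a description and not a measured binding site.

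**Figure D1:**
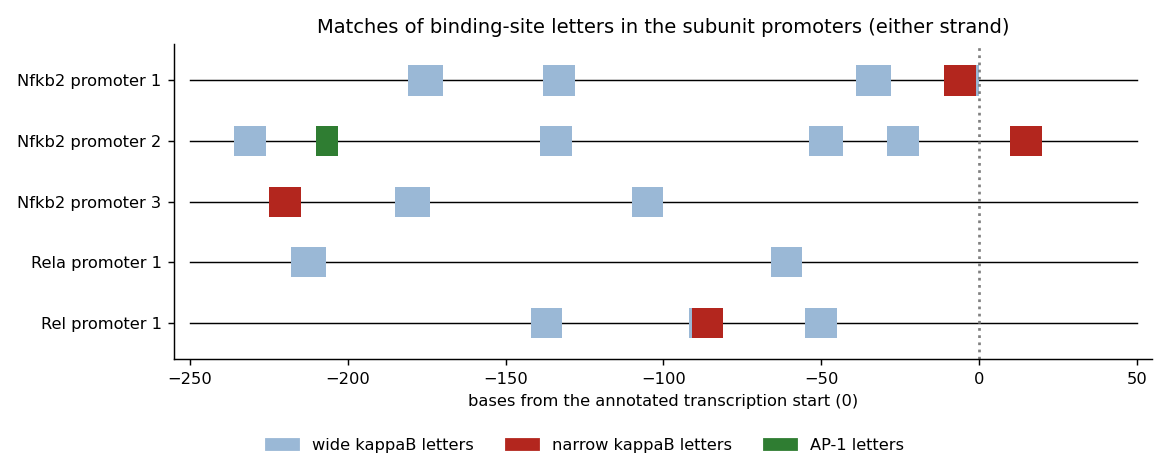
Positions of the letters searched in the 5 member promoters, in bases from the annotated start (x axis), 1 promoter per line. Blue boxes are the wide kappaB letters, red boxes the narrow kappaB letters and the green box the AP-1 letters; the narrow letters appear in the 3 Nfkb2 promoters and in the Rel promoter, and not in the Rela promoter.

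With LPS, the transcripts of all 5 subunits rose. At 2 h every member was higher than at 0 h in both genotypes, by 0.94 (Rela) to 2.23 (Rel) on the log2 scale in LysM-Cre and by 1.13 (Rela) to 2.49 (Rel) in FosKO. The order in time differed between members: Rel had made most of its rise by 1 h, Nfkb1 made most of its rise between 1 and 2 h, and Nfkb2, Relb and Rela lay between. At 0.5 h, 3 of 5 members were called higher in LysM-Cre (Nfkb2, Rela and Rel), where 5.09% of all tested genes were called higher, and 4 of 5 in FosKO (all but Nfkb1), where 4.45% were. Here and below, a call means a limma p under 0.05 after Benjamini-Hochberg adjustment over the 13901 tested genes. At 1 h all 5 were called higher in each genotype, beside 19.2% of tested genes in LysM-Cre and 17.6% in FosKO. At 2 h all 5 were again called higher, beside 30.6% in LysM-Cre and 32.6% in FosKO. All 3 tested dendritic cell markers were also called higher at 2 h (medians 1.85 in LysM-Cre and 1.39 in FosKO), as was S100a8 (0.51 and 0.38). Of 3 tested osteoclast markers, 2 were called higher in LysM-Cre and 1 in FosKO, and no tested fibroblast marker was called. The part of these markers in the rises was not tested. The 3 libraries at 1 h and at 2 h lay wholly above those at 0 h for every member and both genotypes, which for all tested genes, counting groups that did not overlap in either direction, held for 49.3% at 1 h and 67.9% at 2 h in LysM-Cre and for 39.1% and 63.6% in FosKO.

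**Figure D2:**
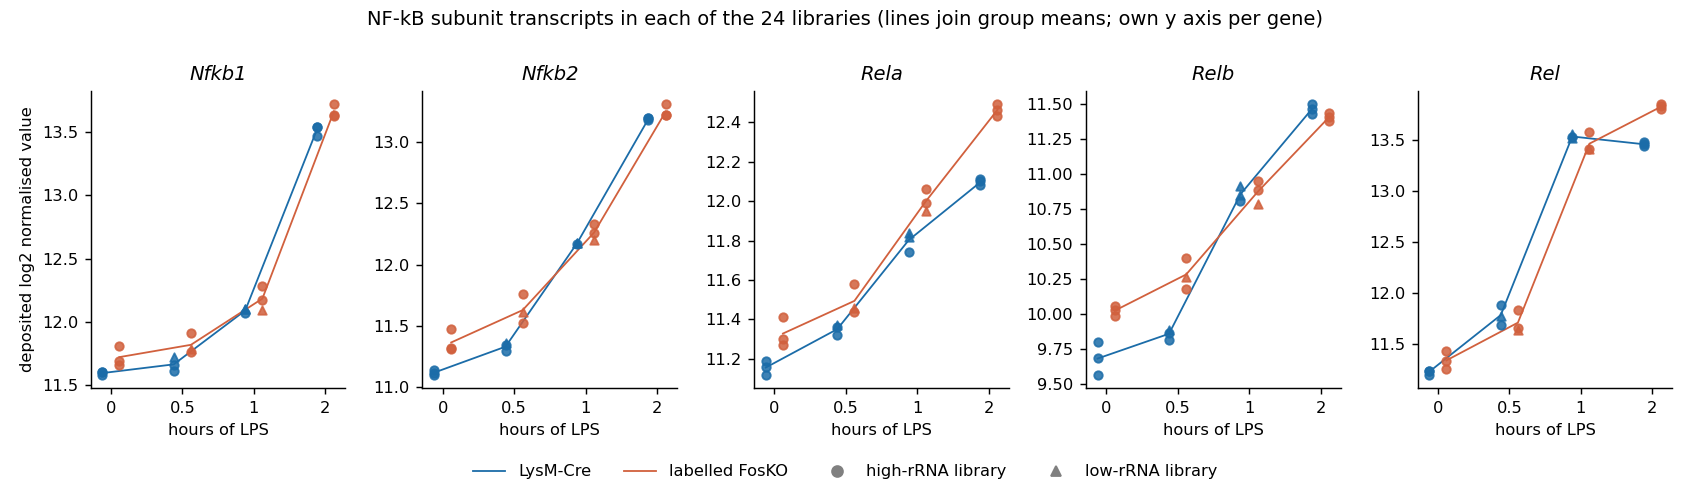
Deposited log2 normalised value (y axis, a separate scale per gene) of each subunit in each of the 24 libraries, by hours of LPS (x axis, times evenly spaced) and genotype label. Circles are libraries of the high 18S ribosomal RNA set, triangles of the low set, and lines join the means of 3 libraries; Rel in LysM-Cre lies at 13.52 to 13.56 at 1 h and at 13.44 to 13.48 at 2 h, while Nfkb1 climbs from 12.07 to 12.10 up to 13.47 to 13.54.

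Rel, the gene of c-Rel, was the earliest and the largest riser of the 5 in LysM-Cre. Its log2 values there were 11.24, 11.20 and 11.24 before LPS, then 11.69, 11.88 and 11.78 by 0.5 h, 13.53, 13.56 and 13.52 by 1 h and 13.44, 13.48 and 13.46 by 2 h, for replicates 1, 2 and 3. In the libraries labelled FosKO they were 11.26, 11.33 and 11.43 before LPS, then 11.64, 11.66 and 11.83 by 0.5 h, 13.41, 13.41 and 13.58 by 1 h and 13.83, 13.85 and 13.81 by 2 h. In LysM-Cre the libraries at 2 h all lay below those at 1 h, by less than 0.2 on this scale, whereas in FosKO the libraries at 2 h all lay above those at 1 h. The rise by 1 h was 2.31 ± 0.053 (SE) in LysM-Cre, a 4.95-fold change that ranked 87th among the rises of the 13901 tested genes, with an adjusted p of 2.07e-18 from limma. In FosKO it was 2.13 ± 0.053, or 4.36-fold. At 0.5 h the rise of Rel was 0.56 in LysM-Cre against 0.37 in FosKO, the largest rise among the 5 in each. From 1 to 2 h Rel differed by -0.08 in LysM-Cre (95% interval -0.19 to 0.04, limma adjusted p = 0.251) and rose by 0.36 in FosKO (limma adjusted p = 7.76e-06). The step in LysM-Cre was called lower with quantile normalisation (-0.19, limma adjusted p = 5.65e-04) and when those groups alone were fitted (limma adjusted p = 0.0184).

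Rela, which encodes the p65 subunit, had the smallest rise of the 5 at 2 h in both genotypes. Its values in LysM-Cre were 11.19, 11.16 and 11.12 before LPS, then 11.32, 11.36 and 11.37 by 0.5 h, 11.74, 11.84 and 11.82 by 1 h and 12.08, 12.10 and 12.11 by 2 h. Those labelled FosKO measured 11.30, 11.27 and 11.41 before LPS, then 11.46, 11.44 and 11.58 by 0.5 h, 11.95, 11.99 and 12.06 by 1 h and 12.46, 12.43 and 12.49 by 2 h. Each later time lay wholly above the one before it in both genotypes, and each of the 4 steps between neighbouring times from 0.5 h onward was called. By 2 h Rela had risen 1.92-fold in LysM-Cre and 2.19-fold in FosKO. The step from 1 to 2 h was 0.29 ± 0.040 in LysM-Cre and 0.46 ± 0.040 in FosKO. In FosKO the rise at 0.5 h (0.17, limma adjusted p = 0.0133) was not called when the groups compared were fitted alone (limma adjusted p = 0.274), nor without FosKO replicates 1 or 2 at 0 h or replicate 3 at 0.5 h (limma adjusted p between 0.0606 and 0.112).

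Relb encodes RelB, the subunit of the non-canonical branch, and its rise was larger in LysM-Cre than in FosKO at 2 h. In LysM-Cre it measured 9.80, 9.69 and 9.57 before LPS, then 9.87, 9.82 and 9.89 by 0.5 h, 10.81, 10.92 and 10.85 by 1 h and 11.43, 11.50 and 11.47 by 2 h. Under the FosKO label it measured 9.99, 10.03 and 10.06 before LPS, then 10.27, 10.18 and 10.40 by 0.5 h, 10.79, 10.89 and 10.95 by 1 h and 11.38, 11.41 and 11.44 by 2 h. The genotypes were apart at 0 and 0.5 h and overlapped at 1 and 2 h. Relb rose 2.26-fold by 1 h and 3.44-fold by 2 h in LysM-Cre, against 1.80-fold and 2.61-fold in FosKO. At 0.5 h its rise was 0.18 in LysM-Cre (limma adjusted p = 0.0528, not called) and 0.26 in FosKO (limma adjusted p = 4.15e-03). With the stricter filter the LysM-Cre value was called (limma adjusted p = 0.0497), as it was without LysM-Cre replicate 1 at 0 h (0.23, limma adjusted p = 0.0121), without FosKO replicates 2 or 3 at 0.5 h or without FosKO replicates 1 or 3 at 1 h (limma adjusted p between 0.0269 and 0.0478). The FosKO value was not called with the groups compared fitted alone (limma adjusted p = 0.101).

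Nfkb1, which encodes p105 and p50, rose late. Its values in LysM-Cre were 11.60, 11.60 and 11.58 before LPS, then 11.61, 11.66 and 11.72 by 0.5 h, 12.07, 12.10 and 12.10 by 1 h and 13.47, 13.54 and 13.54 by 2 h. Under the FosKO label they were 11.66, 11.69 and 11.81 before LPS, then 11.78, 11.76 and 11.91 by 0.5 h, 12.09, 12.17 and 12.28 by 1 h and 13.64, 13.63 and 13.72 by 2 h. At 0.5 h the difference from 0 h was within 0.10 in both genotypes and was not called (limma adjusted p = 0.535 in LysM-Cre and 0.282 in FosKO). The FosKO libraries of these 2 times deviated together by replicate number, and with the replicate number as a block within each genotype the FosKO value of 0.10 was called (limma adjusted p = 0.0278). By 1 h Nfkb1 had risen 1.41-fold in LysM-Cre and 1.38-fold in FosKO. The step from 1 to 2 h then measured 1.43 ± 0.048 in LysM-Cre and 1.48 ± 0.048 in FosKO, the largest step of any member over that hour.

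Nfkb2, which encodes p100 and p52, rose at every step. In LysM-Cre it measured 11.14, 11.11 and 11.10 before LPS, then 11.29, 11.34 and 11.36 by 0.5 h, 12.17, 12.18 and 12.18 by 1 h and 13.18, 13.20 and 13.20 by 2 h. Under the FosKO label it measured 11.31, 11.32 and 11.47 before LPS, then 11.61, 11.52 and 11.76 by 0.5 h, 12.20, 12.26 and 12.33 by 1 h and 13.22, 13.22 and 13.31 by 2 h. No library of a later time overlapped an earlier one within a genotype. The change by 2 h was 4.22-fold in LysM-Cre and 3.70-fold in FosKO. The steps from 0.5 to 1 h and from 1 to 2 h were of similar size in LysM-Cre, at 0.85 ± 0.048 and 1.02 ± 0.048, and in FosKO were 0.64 ± 0.048 and 0.99 ± 0.048. The rise at 0.5 h (0.21 in LysM-Cre and 0.26 in FosKO) was called in both, but not in LysM-Cre with the high 18S libraries alone (limma adjusted p = 0.0591), nor in FosKO with the groups compared fitted alone (limma adjusted p = 0.185). The antisense gene Psd overlaps the end of Nfkb2 and reached 8.19 at most in any library, and Gm43430, inside Nfkb1 on the same strand, reached 3.49.

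**Figure D3:**
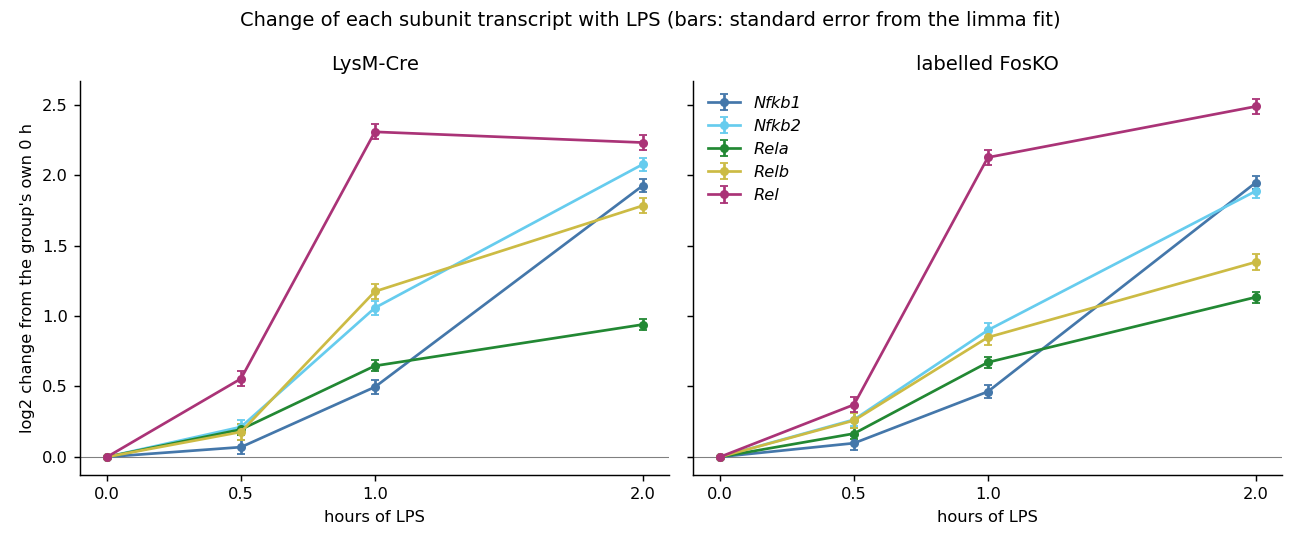
Change of each subunit from its own 0 h group (y axis, log2) by hours of LPS (x axis), in LysM-Cre (left) and in the libraries labelled FosKO (right), with bars of 1 standard error from the limma fit. Rel leads at every time in both panels, and Nfkb1 moves from the lowest change at 1 h (0.50 and 0.46) to 1.92 and 1.95 at 2 h.

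Counted over neighbouring times, all 5 members were called higher from 0.5 to 1 h in both genotypes, where 14.0% of tested genes were called higher in LysM-Cre and 14.5% in FosKO. From 1 to 2 h, 4 of 5 were called higher in LysM-Cre (all but Rel), beside 27.5% of tested genes, and 5 of 5 in FosKO, beside 27.2%. The low 18S libraries all lay at 0.5 and 1 h, so the rises at those times were also taken within the high set, against the same 0 h libraries. In LysM-Cre at 1 h, the 1 high-set library gave rises of 0.47 for Nfkb1, 1.05 for Nfkb2, 0.59 for Rela, 1.12 for Relb and 2.30 for Rel. The 2 high-set FosKO libraries at 1 h gave 0.51, 0.93, 0.70, 0.89 and 2.15 for the same genes. Every member was thus higher than at 0 h within the high set too, by amounts within 0.1 of those from all libraries. At 0.5 h the high-set rises ran from 0.04 (Nfkb1) to 0.56 (Rel) in LysM-Cre and from 0.12 (Nfkb1) to 0.40 (Rel) in FosKO.

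Levels of different genes were compared only per length, as 2 to the power of the value divided by the length of the longest coding transcript in kilobases. These lengths were 4117 bases for Nfkb1, 3846 for Nfkb2, 2716 for Rela, 2209 for Relb and 7466 for Rel. The make-up of the subunit pool shifted with LPS. At 0 h in LysM-Cre, Rela held 29.4% ± 0.1 (SD, n = 3) of the summed level per kilobase of the 5, Nfkb1 26.2% ± 0.37, Nfkb2 20.2% ± 0.18, Relb 13% ± 0.75 and Rel 11.2% ± 0.3. At 1 h Rel came first, with 26.5% ± 0.32, and at 2 h Nfkb1, with 29.4% ± 0.39, followed by Nfkb2 with 25.1% ± 0.24. Over the same time the share of Rela went from first place to 16.6% ± 0.11, while its own level per kilobase went up from 840 to 1611. Relb kept between 12.7% and 14.0%. In FosKO, Rela and Rel did not differ beyond their spread at 1 h (24% ± 0.35 and 24.1% ± 0.6). At 2 h Nfkb1 again led there (28.8% ± 0.37), and Rela held 19.0% ± 0.18 against 11.3% ± 0.11 for Relb. The order depends on the length used: with the summed length of all annotated exons, Nfkb2 led at 2 h in LysM-Cre (30.6%), and with the shortest coding transcript Rela led at every time (64.2% at 0 h and 47.1% at 2 h). The exon length, unlike the other choices, was added after the data were seen.

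**Figure D4:**
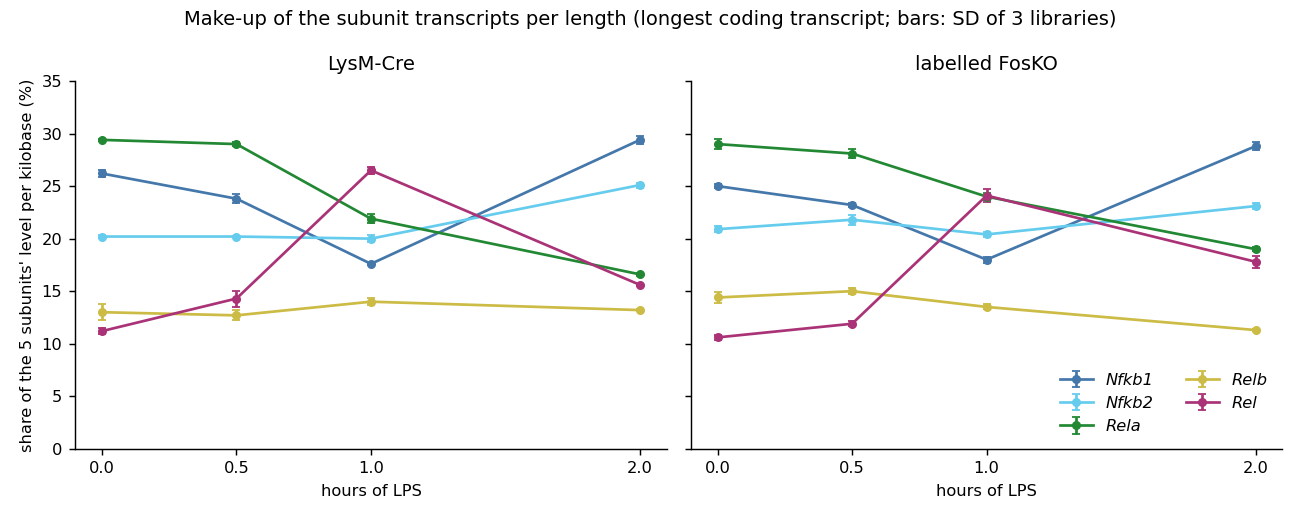
Share of each subunit in the summed level per kilobase of the 5 (y axis, percent) by hours of LPS (x axis), in LysM-Cre (left) and in the libraries labelled FosKO (right), with bars of 1 SD of 3 libraries. Rela goes from 29.4% at 0 h to 16.6% at 2 h in LysM-Cre, Rel peaks at 1 h and Nfkb1 leads at 2 h.

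Between the genotypes the fitted differences of the members did not exceed 0.42 on the log2 scale. Before LPS all 5 were higher in value under the FosKO label, by 7.99% (Rel) to 26.8% (Relb), and 4 of 5 were called higher, where 19.5% of tested genes were called higher and 35.4% were called in either direction. The 3 libraries of one genotype lay wholly above those of the other for all 5, as the groups did not overlap for 44.5% of tested genes. Relb was higher by 0.34 ± 0.054 (SE, limma adjusted p = 4.48e-05), Nfkb2 by 0.25 ± 0.048 (limma adjusted p = 3.72e-04), Rela by 0.17 ± 0.040 (limma adjusted p = 1.88e-03) and Nfkb1 by 0.13 ± 0.048 (limma adjusted p = 0.0465). Rel differed by 0.11 ± 0.053 and was not called (95% interval -0.0007 to 0.22, limma adjusted p = 0.118), but was called without FosKO replicate 1 at 0 h (0.15, limma adjusted p = 0.0468). The call of Nfkb1 was lost without any single one of 14 of the 24 libraries. These were the 3 LysM-Cre libraries and FosKO replicates 2 and 3 at 0 h, LysM-Cre replicate 2 at 0.5 h, all 3 LysM-Cre libraries and FosKO replicate 2 at 1 h, and, at 2 h, LysM-Cre replicates 2 and 3 with FosKO replicates 1 and 2, with limma adjusted p between 0.0514 and 0.256. With quantile normalisation its difference was 0.05 (limma adjusted p = 0.347).

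At 0.5 h, 4 of 5 members were called higher under the FosKO label, where 21.2% of tested genes were called higher and 40.9% in either direction. Relb differed by 0.42 ± 0.054 (limma adjusted p = 2.46e-06), the largest difference of any member at any time, and Nfkb2 by 0.30 ± 0.048. Nfkb1 differed by 0.15 and Rela by 0.14, and neither was called without FosKO replicate 3 at 0.5 h (0.11 and 0.10, limma adjusted p = 0.106 and 0.0617), nor Nfkb1 without LysM-Cre replicate 1 at 0.5 h (limma adjusted p = 0.0698). Rel measured -0.07 ± 0.053, was not called (limma adjusted p = 0.298) and was the one member whose groups overlapped, where 50.8% of tested genes had groups that did not. With quantile normalisation Rel was called lower at 0.5 h (-0.14, limma adjusted p = 7.03e-03) and at 1 h (-0.13, limma adjusted p = 0.0166). The high 18S libraries, 2 against 2, gave differences of 0.45 for Relb, 0.32 for Nfkb2, 0.20 for Nfkb1, 0.17 for Rela and -0.04 for Rel. The low set, 1 against 1, gave 0.38, 0.25, 0.06, 0.09 and -0.14, so that the signs held in both sets for each member.

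At 1 h only Rela was called, at 0.20 ± 0.040 higher under the FosKO label (limma adjusted p = 5.83e-04). The background at that time was 18.0% of tested genes called higher and 33.9% in either direction. Rela and Nfkb2 had groups that did not overlap, as did 45.0% of tested genes. Nfkb1 and Nfkb2 both differed by 0.09, Relb by 0.02 (95% interval -0.10 to 0.13) and Rel by -0.07, and none of them was called (limma adjusted p between 0.145 and 0.851). Nfkb1 was called without FosKO replicate 1 at 1 h (0.14, limma adjusted p = 0.0341), which is a library of the low 18S set. In the high set, 2 FosKO libraries against 1, Rela differed by 0.28, Nfkb1 by 0.16, Nfkb2 by 0.13, Relb by 0.11 and Rel by -0.03. In the low set, 1 against 2, the values were 0.12, -0.01, 0.02, -0.09 and -0.13, so the sign of Nfkb1 and of Relb was not the same in both sets.

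At 2 h, 3 of 5 members were called higher under the FosKO label, Rela, Rel and Nfkb1, where 24.4% of tested genes were called higher and 44.6% in either direction. All libraries of that time were in the high 18S set. Rela and Rel differed by the same amount, 0.37, which is 28.9% and 29.0% higher (limma adjusted p = 2.76e-07 and 1.04e-05), and for both the lowest FosKO library lay above the highest LysM-Cre library. Nfkb1 differed by 0.15 ± 0.048 (limma adjusted p = 0.0164). Its call ended when either LysM-Cre replicate 1 or, in FosKO, replicate 3 was left out (limma adjusted p = 0.0776 and 0.0804), and with quantile normalisation its value was -0.0089. Nfkb2 differed by 0.06 (95% interval -0.04 to 0.16) and Relb by -0.06 (95% interval -0.17 to 0.05), and neither was called. With quantile normalisation Relb was called lower (-0.16, limma adjusted p = 0.0144), and Nfkb2 measured -0.08 and was not called (limma adjusted p = 0.075). The groups of 4 members did not overlap, Relb being the exception, as for 54.0% of tested genes.

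**Figure D5:**
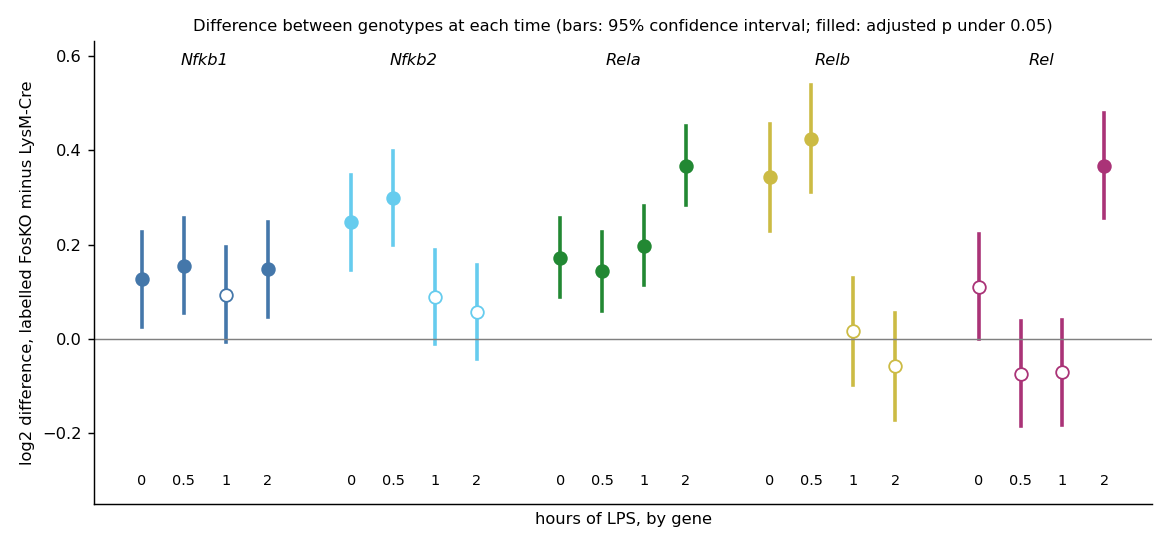
Difference of each subunit between the genotypes (y axis, log2, labelled FosKO minus LysM-Cre) at 0, 0.5, 1 and 2 h of LPS (x axis, by gene), with 95% confidence intervals. Filled points were called at an adjusted p under 0.05; Relb goes from 0.34 and 0.42 to 0.02 and -0.06, whereas Rela and Rel reach 0.37 at 2 h.

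The change in these differences over time was tested as a difference in LPS response, the rise in FosKO minus the rise in LysM-Cre. At 0.5 h no member was called (0 of 5), beside 0.115% of tested genes. Rel had the largest value, -0.18, with an unadjusted p of 0.0241 and a limma adjusted p of 0.727, and it was the 1 member under an unadjusted p of 0.05. At 1 h Relb was called, beside 1.22% of tested genes, its rise being 0.85 in FosKO and 1.17 in LysM-Cre, a difference of -0.33 ± 0.077 (limma adjusted p = 0.0379). This call was lost without any single one of 10 libraries: LysM-Cre replicates 2 and 3 and FosKO replicates 2 and 3 at 0 h, LysM-Cre replicates 2 and 3 and FosKO replicates 1 and 2 at 1 h, and replicate 3 of LysM-Cre and 1 of FosKO at 2 h (limma adjusted p between 0.0501 and 0.133). With the high 18S libraries alone, which left 1 LysM-Cre library at 1 h, the difference was -0.23 (limma adjusted p = 0.629), and the call was also lost with no filter, no variance trend or the groups compared fitted alone (limma adjusted p between 0.0668 and 0.128).

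At 2 h, 3 of 5 members differed in response, beside 15.0% of tested genes. Relb rose by 1.38 in FosKO and by 1.78 in LysM-Cre, a difference of -0.40 ± 0.077 (limma adjusted p = 1.03e-03), which was called without any single library and under each other setting tried. Rel rose by 2.49 and 2.23, a difference of 0.26 ± 0.075 (limma adjusted p = 0.0252), and Rela by 1.13 and 0.94, a difference of 0.19 ± 0.056 (limma adjusted p = 0.0233). Both of these calls were lost with quantile normalisation (0.14 for Rel and 0.10 for Rela, limma adjusted p = 0.109 and 0.137). The call of Rel also ended without replicates 1 or 3 of LysM-Cre or 1 or 2 of FosKO at 0 h, or without replicate 1 of LysM-Cre or 2 of FosKO at 2 h (limma adjusted p between 0.0524 and 0.0676). That of Rela ended without replicate 1 of LysM-Cre or replicates 1 or 2 of FosKO at 0 h, or without replicate 1 of LysM-Cre or 3 of FosKO at 2 h (limma adjusted p between 0.0508 and 0.0704). Nfkb2 differed by -0.19 ± 0.068 and was not called (limma adjusted p = 0.0657), but was called with quantile normalisation (-0.28, limma adjusted p = 7.08e-04) and without FosKO replicates 1 at 0 h, 2 or 3 at 0.5 h or 3 at 2 h (limma adjusted p between 0.022 and 0.0466). Nfkb1 differed by 0.02 (95% interval -0.12 to 0.16, limma adjusted p = 0.892). Of the 7 macrophage markers, 3 were called for a difference in response at 2 h, each higher, Mertk (0.68, limma adjusted p = 1.75e-05), Cd14 (0.36, limma adjusted p = 0.00233) and Itgam (0.15, limma adjusted p = 0.0423), and their part in the results for Rela and Rel was not tested. Dendritic cells are known for RelB, and of 4 of their markers Zbtb46, Xcr1 and Ccr7 passed the filter, while Flt3 did not (1.27 to 1.82). Of the 3 tested, 1 was called for a difference in response at 2 h, Zbtb46 (-0.85, limma adjusted p = 0.0223), and Xcr1 (-0.29, limma adjusted p = 0.449) and Ccr7 (-0.35, limma adjusted p = 0.241) were not. The summed level of all 4 (2 to the power of the value) went from 37.2 to 39.2 at 0 h up to 124 to 133 at 2 h in LysM-Cre, and from 37.3 to 46.9 up to 96.8 to 99.8 in FosKO. At 2 h Zbtb46 measured 5.95 ± 0.114 (SD, n = 3) in LysM-Cre and 4.99 ± 0.132 in FosKO, whereas Xcr1 (5.58 and 5.62) and Ccr7 (3.90 and 3.87) lay close together, so the gap in the sum was mostly that of Zbtb46. The part of these markers in the Relb result was not tested. In bulk samples, a change in the number of cells of a type and a change in RNA per cell cannot be told apart.

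The subunits followed each other to different degrees over the 24 libraries, which share their treatment and time and are not independent points. Pearson's r was highest between Nfkb2 and Relb (0.982) and lowest between Nfkb1 and Rel (0.774). Within a library, Rel minus Nfkb1 on the log2 scale went from -0.36 ± 0.028 (SD, n = 3) at 0 h to 1.45 ± 0.019 at 1 h and back to -0.06 ± 0.031 at 2 h in LysM-Cre, and from -0.38 ± 0.017 through 1.28 ± 0.043 to 0.16 ± 0.067 in FosKO. These differences carry the unequal transcript lengths, so only their movement over time is meant. Relb minus Nfkb2 moved much less, from -1.43 ± 0.095 to -1.72 ± 0.021 in LysM-Cre and from -1.34 ± 0.069 to -1.84 ± 0.028 in FosKO. Among the other tested genes, the 3 with the highest Pearson's r over the 24 libraries were Tbc1d1 (0.997), Ube2z (0.995) and Stk4 (0.995) for Nfkb1. For Nfkb2 they were Ube2f (0.996), Mapkapk2 (0.995), the MK2 kinase downstream of p38, and Ncf1 (0.994), a subunit of the phagocyte NADPH oxidase. For Rela they were Clec5a (0.991), Rnf2 (0.988) and Mob3c (0.988), and for Relb they were Cd40 (0.993), Spryd7 (0.992) and Tlr2 (0.991), of which Cd40 and Tlr2 are receptors of immune cells. For Rel they were Pvr (0.992), Mtmr12 (0.990) and Cdk12 (0.990). The choice of genes depends on the measure. By Spearman's rho they ranked 57.5 to 87.5 for Nfkb1, 17 to 26 for Nfkb2 and 24 to 84 for Rela. The ranks were 4 to 34 for Relb and 3.5 to 17 for Rel.

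Genes of the IkB family, which holds both the classical inhibitor IkB alpha and atypical nuclear proteins, were already called higher at 0.5 h. All 6 genes of the IkB family and Bcl3 were called higher at 0.5, 1 and 2 h in both genotypes, with median changes of 1.33, 2.31 and 2.63 in LysM-Cre and 1.26, 2.16 and 2.13 in FosKO, beside medians over all tested genes within 0.02 of 0. At these times 5.09%, 19.2% and 30.6% of tested genes were called higher in LysM-Cre and 4.45%, 17.6% and 32.6% in FosKO. The corresponding medians of the 5 subunits were 0.19, 1.06 and 1.92 in LysM-Cre. At 1 h in LysM-Cre the largest rises were of Nfkbiz (4.10), an atypical nuclear IkB, Nfkbia (2.94), the classical inhibitor IkB alpha, Nfkbid (2.65) and Nfkbie (1.98). The response at 2 h differed between the genotypes for 5 of the 6, beside 15.0% of tested genes. Bcl3, which binds p50 and p52 homodimers, rose less in FosKO by 0.78 (limma adjusted p = 1.52e-05), and Nfkbia by 0.24. Nfkbiz and Nfkbid both rose more there, by 0.32. From 0 to 2 h, Nfkbia went from 11.75 to 14.47 in LysM-Cre and from 12.04 to 14.52 in FosKO.

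Changes of the IKK complex and TAK1 genes, which act upstream, were smaller at the median. At 0.5 h the limma adjusted p of the 7 genes of the IKK complex and TAK1 lay between 0.0859 and 0.93, and no call was made in either genotype. At 2 h, 5 were called higher and 2 lower in both genotypes, with medians of 0.29 in LysM-Cre and 0.20 in FosKO. Over all tested genes 30.6% were called higher and 60.8% in either direction at 2 h in LysM-Cre, and 32.6% and 62.1% in FosKO. The largest changes were of Tab1 (-1.20 in LysM-Cre and -1.54 in FosKO) and Tab2 (1.1 and 1.01), which are adaptors of TAK1, and of Ikbkb (0.68 and 0.67), which encodes IKK beta. Of the 7, 1 differed in response at 2 h, Tab1, by -0.34 (limma adjusted p = 0.0166), a share near the 15.0% of tested genes called there.

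In the non-canonical branch, 7 of 9 genes were called higher and 2 lower at 2 h in LysM-Cre (median 1.07), against 6 higher and 2 lower in FosKO (median 0.79). The same backgrounds apply to these counts. The receptor Cd40 rose by 4.13 in LysM-Cre and 3.50 in FosKO, the TNF receptor Tnfrsf1b by 2.01 and 1.66, and the ubiquitin ligase Birc3 by 1.63 and 1.64. Map3k14, which encodes the kinase NIK that drives p100 processing, fell by 0.76 in LysM-Cre and measured -0.11 in FosKO, where it was not called. Its difference in response was 0.66 (limma adjusted p = 5.68e-07). Of the 9 genes, 1 was called higher and 4 lower for the difference in response at 2 h, beside 15.0% of tested genes called in either direction. Tnfrsf1b and Traf3, an adaptor that restrains NIK, rose less in FosKO by 0.36 and 0.35. From 0 to 2 h, Tnfrsf1b went from 13.15 to 15.16 in LysM-Cre and from 13.54 to 15.19 in FosKO. Traf3 went from 10.20 to 10.70 in LysM-Cre and from 10.20 to 10.35 in FosKO. For Cd40 the difference of -0.63 was not called (limma adjusted p = 0.0634).

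Of the genes whose products bind p105, Map3k8 (TPL-2) rose at 2 h by 1.98 in LysM-Cre and 1.94 in FosKO, and Tnip2 (ABIN-2) by 0.13 in LysM-Cre, with 0.04 in FosKO that was not called. Their differences in response had limma adjusted p values between 0.397 and 0.993 and were not called. Map3k8 was higher under the FosKO label at every time, by 0.27 to 0.50. Of 5 genes for ubiquitin ligases and a partner that act on p105 and p100, 1 was called higher and 3 lower at 2 h in LysM-Cre, and 2 higher and 3 lower in FosKO, beside 30.6% and 32.6% of tested genes called higher and 60.8% and 62.1% called in either direction. Fbxw11, an F-box protein of the beta-TrCP type, rose by 0.66 and 0.95, and Fbxw7 fell by 0.36 and 0.49. Between the genotypes at 0 h, 4 of the 6 IkB genes were called higher and 1 lower. Of the 7 genes of the IKK complex and TAK1, 3 were called higher and 1 lower. Of the 9 non-canonical genes, 5 were called higher and 2 lower, and of the 5 processing genes 2 were called higher. In that comparison 19.5% of tested genes were called higher and 35.4% in either direction.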

How the data were processed

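Libraries were made from BMDMs of 8 groups, 3 per group, and read single-end and strand-specific. Per their methods, the authors aligned reads with STAR 2.5.2a, counted them per gene with RSEM 1.2.31 and tested genes with DESeq2. The authors' processing notes list DESeq2 1.16.1, where the methods name another version, and GRCm38. The deposited values are log2 normalised expression per gene, from -2.22 to 19.39. How these counts became the deposited values is not given in the sources used here, and for depth the methods state only a typical yield of reads, not one per library. The values are not counts, so no count test was run. Normalisation across libraries makes each value relative to the other genes and libraries. All 24 columns were used.

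Differences were tested with limma 3.58.1 (R 4.3.3) on the deposited log2 scale, with 8 group means, 16 residual degrees of freedom and a variance trend. Genes with a linear value of at least 5 in at least 3 libraries were tested, 13901 of 24273. P-values were adjusted over all of them by Benjamini-Hochberg, with a call at 0.05. Error terms are SD of 3 libraries or SE of the fit. The methods call the libraries biological replicates but do not tie them to separate animals or cultures, so p-values measure only the spread between these samples. The fit was tested on simulated data before use. Python 3.11.15, pandas 2.3.3 and matplotlib 3.10.9 were used for the rest, and transcript lengths and positions came from GENCODE M21.

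Named were all 5 members, the 3 genes most correlated with each, up to 4 genes per pathway list with the largest differences in the comparison described, and the checks Fos, Lyz2 and Rn18s-rs5. The members and lists were chosen with earlier results of these data known. Alternatives were other filters, scalings, variance models, replicate blocks, 18S sets, transcript lengths and leaving out each library. Replicate numbers in the labels were not stated to pair samples. In FosKO, replicate 3 had the highest value of its group at each time for Nfkb1, Nfkb2, Rela and Relb. For Rel this held at 0, 0.5 and 1 h and not at 2 h. The fit treated the 24 libraries as independent, and whether same-numbered ones share a mouse or culture is not given. Genotype differences at several times are therefore not shown to be independent observations. Correlations of same-numbered deviations ran from -0.527 to 0.706, and every pair exceeded 0.1 in 2 of 14 comparisons, FosKO at 0.5 h against 0 h and FosKO at 1 h against 0.5 h.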

Additional observations from a re-analysis of the deposited data

Results flagged for a closer look

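A difference between the genotypes in the response to LPS, tested as such, marked 4 values. The rise of Relb was smaller under the FosKO label at 1 h (-0.33) and at 2 h (-0.40). The rise of Rela (0.19) and that of Rel (0.26) were larger there at 2 h.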

How the results depend on the processing

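Of 85 differences of the 5 members, 65 kept their side of the threshold under each other setting run and without any 1 library. Those of the 65 that were called also kept their direction, whereas 8 that were not called changed sign in at least 1 setting or without at least 1 library (Nfkb2 between genotypes at 2 h and Relb at 1 h, and the differences in response of Nfkb1 at each time, Rela at 0.5 and 1 h and Nfkb2 at 0.5 h). These settings were 11, except that the 20 genotype differences had 1 fewer, since the replicate block within genotype was run only for differences within a genotype and in response. Relb at 2 h was among the 65 for the difference in response (-0.47 to -0.38 under the settings). With quantile normalisation the genotype difference of Nfkb1 was 0.045 at 0 h and -0.0089 at 2 h, that of Rel -0.14 at 0.5 h and -0.13 at 1 h (2 members called), and at 2 h that of Relb -0.16 and that of Nfkb2 -0.082 (not called). The LysM-Cre step of Rel from 1 to 2 h was then -0.19, and the differences in response at 2 h were -0.28 for Nfkb2, 0.10 for Rela and 0.14 for Rel. The cause was not tested.

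Nfkb1 at 0 h (0.13) was not called with no filter, no variance trend or only the groups compared (limma adjusted p = 0.0778, 0.0648 and 0.0596). The Relb difference in response at 1 h (-0.33) was not called in those settings either, nor with the high 18S libraries alone (-0.23), which leaves 0 members called by limma in each (1 was called otherwise). With only the groups compared, which leaves fewer samples, 1 member was called in FosKO at 0.5 h (Nfkb2 0.26, Rela 0.17 and Relb 0.26 were not), Rel from 1 to 2 h in LysM-Cre was called (-0.076), and so was the Nfkb2 difference in response at 2 h (-0.19). The stricter filter called Relb at 0.5 h in LysM-Cre (0.18), and the high 18S libraries alone lost Nfkb2 there (0.20).

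The replicate block called Nfkb1 between genotypes at 1 h (0.094), giving 2 members, and the Nfkb2 difference in response at 2 h (-0.19). The replicate block within genotype called the latter too (-0.19), and Relb at 0.5 h in LysM-Cre (0.18) and Nfkb1 at 0.5 h in FosKO (0.10). The blocks changed no other call of a member.

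Without 1 library at a time, the genotype difference of Nfkb1 ran from 0.080 to 0.16 at 0 h, 0.11 to 0.18 at 0.5 h, 0.043 to 0.14 at 1 h and 0.12 to 0.16 at 2 h. That of Rel at 0 h ran from 0.065 to 0.15 and that of Rela at 0.5 h from 0.10 to 0.17. The rise at 0.5 h ran from 0.12 to 0.23 for Relb in LysM-Cre and from 0.12 to 0.21 for Rela in FosKO. The difference in response ran from -0.38 to -0.27 for Relb at 1 h, and at 2 h from -0.22 to -0.14 for Nfkb2, 0.17 to 0.24 for Rela and 0.22 to 0.30 for Rel. Members called ran from 2 to 4 (genotype, 0.5 h), 1 to 2 (genotype, 1 h), 0 to 1 (response, 1 h) and 1 to 4 (response, 2 h).

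Genes called over the whole table fell in number with the high 18S libraries alone, to 2994 between genotypes at 1 h, to 3009 in LysM-Cre at 1 h and to 2010 from 0.5 to 1 h there. With only the groups compared they numbered 301 in FosKO at 0.5 h and 2471 from 0.5 to 1 h. For the difference in response they ranged from 6 to 26 at 0.5 h and, in these 2 settings, were 93 and 112 at 1 h. Quantile normalisation moved the share of calls that were higher from 53.8% to 37.6% in LysM-Cre and from 54.0% to 35.3% in FosKO at 1 h, from 50.3% to 40.0% and from 52.5% to 39.2% at 2 h, and from 70.3% to 48.3% and 75.2% to 50.5% at 0.5 h. Between genotypes it moved from 53.1% to 42.8% at 1 h, 54.6% becoming 43.0% at 2 h, and for the steps from 0.5 to 1 h from 52.2% to 41.8% and 52.7% to 39.1%, and from 1 to 2 h in FosKO from 53.6% to 42.1%. Median centring moved it from 52.2% to 64.8% for the step from 0.5 to 1 h in LysM-Cre and from 48.5% to 59.1% for the difference in response at 2 h, and the high 18S libraries alone moved it from 40.2% to 65.6% for that at 1 h. Depth could not be examined.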
